A study of Mus musculus with 4 samples.

Results

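Chemokine ligands are small proteins that steer leukocytes and microglia through receptors on those cells. The 10 ligand genes described here were chosen by symbol: Ccl2, Ccl7 and Ccl12, which act on the monocyte receptor Ccr2; Ccl3 and Ccl4, which attract macrophages and T cells; Cxcl10, the interferon-induced ligand of Cxcr3; Cxcl1, a neutrophil attractant that acts on Cxcr2; Cxcl12, the ligand of Cxcr4; and the membrane-anchored Cxcl16 and Cx3cl1. They are 10 of 22609 gene symbols counted by RNA sequencing, and all 10 were among the 15011 genes with enough reads to be tested.

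In the brain most of these ligands are scarce until injury, when microglia, astrocytes and vessel cells switch on the inflammatory members, largely through NF-kappaB and interferon-driven transcription factors. Cxcl12 and Cx3cl1 are made without injury. Cx3cl1, or fractalkine, is made mainly by neurons, is cut from the membrane by the proteases Adam10 and Adam17, and is sensed by microglia through Cx3cr1.

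Hippocampi came from female mice that had been ovariectomized a week earlier and whose common carotid arteries were both closed for 20 min, with tissue taken after 24 h of reperfusion. Both genotypes went through the surgery, the occlusion and the reperfusion. The FLOX-control group (n = 2) carried the floxed aromatase gene Cyp19a1, and the GFAP-ARO-KO group (n = 2) also carried Cre under the Gfap promoter, which, per the labels, deletes aromatase, the enzyme that makes estrogen, in astrocytes alone. The comparison asks how the ischemic hippocampus of mice with the floxed gene and Cre differs from that of mice with the floxed gene alone. No group carried Cre without the floxed gene, so loss of astrocyte aromatase and an effect of Cre itself cannot be told apart. There was no group without ischemia, so a changed response to ischemia and a difference that preceded it cannot be told apart. The sources used here give neither strain nor age, nor whether animals were pooled. The labels do not say that the libraries came from separate animals, so p-values measure only the spread between these libraries, which may be technical.

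Libraries held 27930696 to 34878375 reads assigned to genes. The targeted gene Cyp19a1 had 3 and 2 control reads against 1 and 9 knockout reads, too few to check the labels. Markers of hippocampal neurons were abundant in all 4 libraries (Camk2a at 4662 to 5650 CPM, the reads of a gene per 1000000 gene reads), as were those of astrocytes (Slc1a2 at 2501 to 2979 CPM). Of 14 microglial markers 11 were lower in the knockouts, where their summed level was 339 and 348 CPM against 609 and 688 in the controls; none was at 0. The summed level of 9 markers of mural cells and meninges was 376 CPM in the second knockout library and 126 to 167 CPM in the other three. In bulk tissue, fewer cells of a type and less RNA per cell cannot be told apart.

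The 3 ligands of Ccr2 were nearly absent from the knockout libraries. Together they reached 11.4 and 14.1 CPM in the controls, against 0.057 and 0.354 CPM in the knockouts. Of the 10 ligands, 5 passed the test as lower in the knockout (edgeR's quasi-likelihood test, Benjamini-Hochberg adjusted p below 0.05) and 0 as higher, where 11% of all tested genes were lower and 9.39% higher. In 8 of the 10 ligands both knockout libraries lay below both controls, as they did in 32.8% of tested genes. A called fall of at least 4-fold was seen for 4 ligands, Ccl12, Ccl2, Ccl7 and Ccl3, and for 0.726% of tested genes. The median log2 fold change was -2.67 over the 10 ligands and -0.00081 over all tested genes. Ccl2, Ccl7 and Ccl12 passed the filter on low counts through the controls alone, so that the test could only find them lower, and the ligands were picked with earlier results of these data known; the counts describe them and are no separate evidence.

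**Figure D1:**
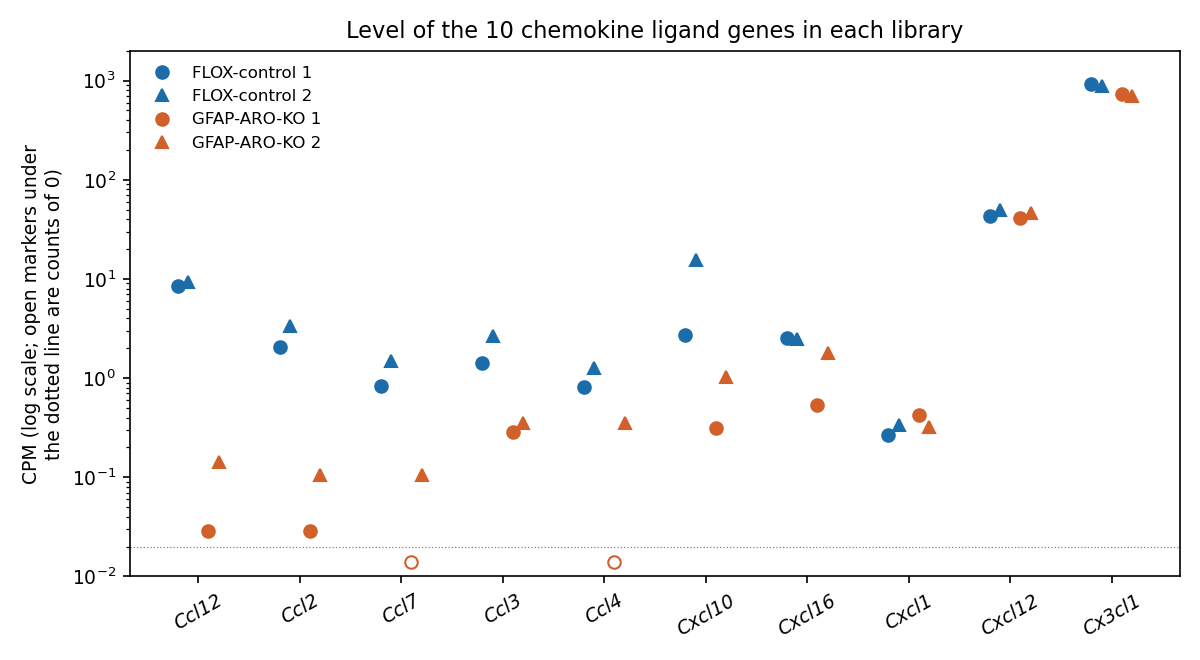
Level of each of the 10 chemokine ligand genes in CPM on a log axis, with 1 point per library (blue, FLOX-control; orange, GFAP-ARO-KO; circles and triangles, first and second library). Open markers are counts of 0. The Ccr2 ligands Ccl12, Ccl2 and Ccl7 were at or below 0.142 CPM in both knockout libraries and at or above 0.836 CPM in both controls, whereas Cxcl12 and Cxcl1 overlapped.

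Ccl12, a mouse attractant of monocytes (chromosome 11, 81915347 to 81916902, plus strand, mm9), was counted at 8.48 and 9.27 CPM in the controls, against 0.0285 and 0.142 CPM in the knockouts. The levels rest on 284 and 303 reads against 1 and 4, and the groups are far apart. On the log2 scale Ccl12 fell by 6.74 ± 0.42 (SE; adjusted p = 4.03e-04). The control level was 112 times that of the knockout, with a 95% counting interval of 47.9 to 347 that covers counting error only. The log2 fold change was -5.93 without the first knockout library and -8.10 without the second. In every fit that leaves out a library, 1 group is a single library, and the spread comes from the other group alone; the single library is assumed to vary like it.

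Ccl2, the main attractant of monocytes (chromosome 11, 81849073 to 81850955, plus strand), was at 2.06 and 3.33 CPM in the controls (69 and 109 reads) and at 0.0285 and 0.106 CPM in the knockouts (1 and 3 reads). Both knockout libraries were thus at or under the level of 3 reads. Ccl2 fell by 5.33 ± 0.63 (adjusted p = 0.00263), with a counted ratio of 42.6 (95% counting interval 16.3 to 158). Leaving out the first knockout library gave -4.61, and leaving out the second gave -6.38.

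Ccl7, which shares Ccr2 and also acts on other receptors (chromosome 11, 81859214 to 81861027, plus strand), gave 28 and 49 reads in the controls, against 0 and 3 in the knockouts, or 0.836 and 1.499 CPM against 0 and 0.106 CPM. It fell by 4.51 ± 0.85 (adjusted p = 0.0103), with a counted ratio of 24.6 (95% counting interval 8.10 to 122). The call was not kept when the second control library was left out (adjusted p = 0.0548), and leaving out the first knockout library gave a log2 fold change of -3.40. With the second knockout library left out, the other held 0 reads, so no size is given there.

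Ccl2, Ccl7 and Ccl12 resemble each other, with 68.7% to 71.7% identical bases between aligned transcripts. The longest identical run was 23 bases, shorter than the 50 bp reads, and none of their 50-base windows lies at more than 1 place in the mm9 genome or is shared among the 10 ligands. The same was true of Ccl3 and Ccl4 (70.8% identical bases, longest run 9). Ccl2 overlaps the span of a predicted gene on the other strand, Gm17268, with which it shares 0 exonic bases.

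**Figure D2:**
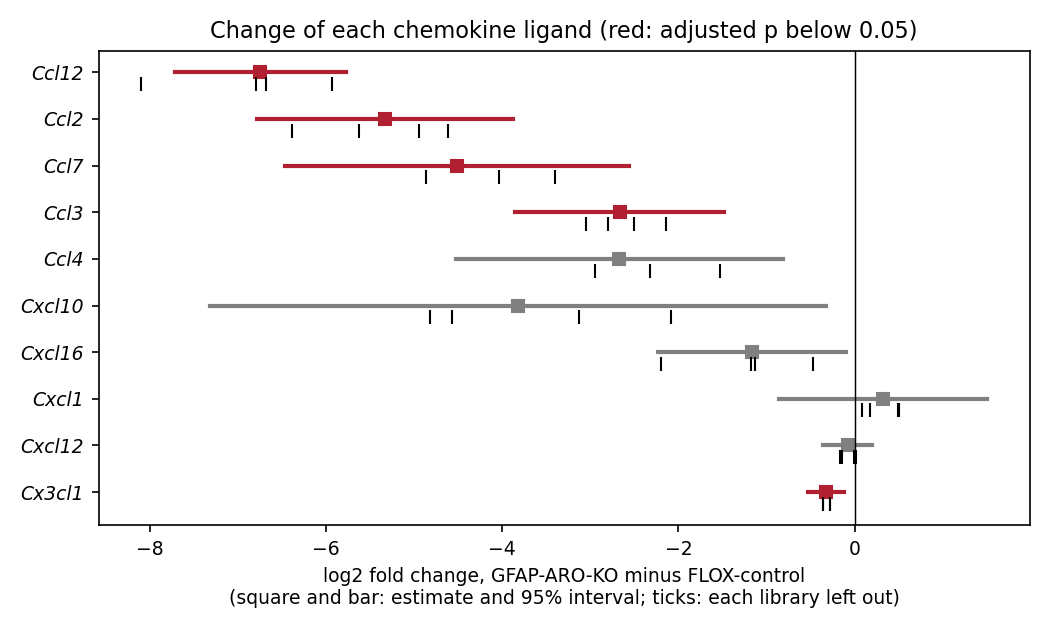
log2 fold change (GFAP-ARO-KO minus FLOX-control) of each ligand with its 95% interval; red marks an adjusted p below 0.05, and ticks give the estimate with each library left out, except where the knockout library that remains holds 0 reads. Ccl12 sits lowest at -6.74, and Cx3cl1, called at -0.33, has the narrowest interval.

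Ccl3 and Ccl4, inflammatory ligands made by microglia and macrophages, had smaller estimated differences than the Ccr2 ligands, and 1 of the 2 passed the test. Their 95% intervals (-3.85 to -1.48 for Ccl3) overlapped that of Ccl7 (-6.46 to -2.56), and ligands were not tested against each other. Ccl3 (chromosome 11, 83461346 to 83462857, minus strand) was at 1.40 and 2.66 CPM in the controls, against 0.285 and 0.354 CPM in the knockouts, without overlap. It fell by 2.67 ± 0.51 (adjusted p = 0.0131), but not when the second control library was left out (-2.14, adjusted p = 0.0676). Ccl4 (chromosome 11, 83476086 to 83478185, plus strand) gave 27 and 41 reads in the controls, against 0 and 10 in the knockouts, or 0.806 and 1.25 CPM against 0 and 0.354 CPM. The knockout libraries differ from each other here but both lie below the controls. Ccl4 missed the threshold at -2.67 ± 0.79 (log2; 95% interval -4.52 to -0.82, adjusted p = 0.0527); it passed with the first control library left out (adjusted p = 0.0448), or with the second knockout library left out (adjusted p = 0.00902), where the other held 0 reads. With the first knockout library left out Ccl4 was at -1.53 (adjusted p = 0.0836), and with the second control left out at -2.32 (adjusted p = 0.121).

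Cxcl10, made in response to interferons and a ligand of Cxcr3 on T cells (chromosome 5, 92775664 to 92777915, minus strand), varied most between controls. It was at 2.72 CPM in the first control (91 reads) and 15.4 CPM in the second (502 reads), a 5.65-fold difference within the group, and at 0.313 and 1.03 CPM in the knockouts. Both knockouts lie below both controls, at a log2 fold change of -3.82 ± 1.27 (95% interval -7.31 to -0.32). In edgeR's test p was 0.0385, but after adjustment over all tested genes Cxcl10 missed the threshold (adjusted p = 0.116). Without the first control library it passed (-4.57, adjusted p = 0.00297), and without the second the difference was -2.09 (adjusted p = 0.0762). Cxcl10 was at -3.13 (adjusted p = 0.542) without the first knockout library and at -4.82 (adjusted p = 0.339) without the second. Cxcl10 shares 133 exonic bases with Art3 on the other strand; the sources used here do not give the strand setting, so reads of both genes cannot be told apart there. Art3 was at 4.27 and 4.04 CPM in the controls, against 2.79 and 3.58 CPM in the knockouts and did not pass (adjusted p = 0.250).

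Cxcl1 (chromosome 5, 91320267 to 91322141, plus strand) was scarce in all 4 libraries, with 9 and 11 reads in the controls, against 15 and 9 in the knockouts. At 0.269 and 0.336 CPM against 0.427 and 0.319 CPM the groups overlap. Cxcl1 missed the threshold at 0.32 ± 0.51 (log2; adjusted p = 0.683), and the 95% interval of -0.86 to 1.51 leaves out a fall of the size of Ccl12, Ccl2 or Ccl7.

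The promoters of the largest fall (Ccl12), of the most variable ligand (Cxcl10), of a scarce ligand whose groups overlap (Cxcl1) and of the most abundant ligand (Cx3cl1) are shown to set the letters of known response elements beside levels that differ this much. Each runs from 250 bases before to 50 after the RefSeq start (table of GRCm38.p6) and matched mm9 base for base once, at chr11:81915097-81915396 (plus strand), chr5:92777866-92778165 (minus), chr5:91320021-91320320 (plus) and chr8:97295830-97296129 (plus). Capitals mark a TATA box (TATAAA), an AP-1 motif (TGANTCA), a kappaB motif and an interferon-stimulated response element (GAAA, any 2 bases, GAAA), searched on both strands.
Ccl12: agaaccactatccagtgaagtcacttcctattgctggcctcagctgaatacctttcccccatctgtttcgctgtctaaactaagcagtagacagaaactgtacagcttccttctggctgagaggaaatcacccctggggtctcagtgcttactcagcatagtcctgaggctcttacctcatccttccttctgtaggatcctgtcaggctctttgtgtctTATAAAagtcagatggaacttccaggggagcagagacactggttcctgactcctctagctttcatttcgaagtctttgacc
Cxcl10: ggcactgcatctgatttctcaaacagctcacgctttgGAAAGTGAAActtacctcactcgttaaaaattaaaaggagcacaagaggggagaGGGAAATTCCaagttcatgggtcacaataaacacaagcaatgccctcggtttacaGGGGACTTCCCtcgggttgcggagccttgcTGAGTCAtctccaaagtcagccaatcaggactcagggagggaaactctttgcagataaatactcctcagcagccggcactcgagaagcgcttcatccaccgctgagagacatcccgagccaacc
Cxcl1: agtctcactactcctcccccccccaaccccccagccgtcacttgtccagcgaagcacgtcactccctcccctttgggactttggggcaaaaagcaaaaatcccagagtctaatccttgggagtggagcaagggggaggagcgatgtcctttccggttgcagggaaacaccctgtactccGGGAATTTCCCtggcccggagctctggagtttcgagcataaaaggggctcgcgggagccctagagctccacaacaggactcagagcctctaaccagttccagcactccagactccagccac
Cx3cl1: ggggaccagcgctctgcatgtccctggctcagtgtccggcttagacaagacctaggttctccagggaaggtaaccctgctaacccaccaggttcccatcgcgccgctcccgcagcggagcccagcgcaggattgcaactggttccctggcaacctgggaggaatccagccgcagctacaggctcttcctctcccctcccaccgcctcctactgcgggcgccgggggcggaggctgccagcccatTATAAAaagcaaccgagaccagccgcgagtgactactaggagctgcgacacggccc
Cxcl10 holds all of the last 3 motifs: the interferon-stimulated element, the AP-1 motif, and kappaB motifs at 159 bases before the start and, overlapping each other, at 104 and 103. Cxcl1 holds overlapping kappaB motifs at 71 and 70 bases before the start, although its level was not shown to differ. Of these 4 motifs, Ccl12 and Cx3cl1 hold only the TATA box, at 31 and 6 bases before the RefSeq start. By GENCODE the Cx3cl1 gene starts further upstream, at 97295909, so there these letters lie inside the annotated gene. Of all 32851 promoters in the table, 8.46% hold the kappaB motif, 3.44% the interferon-stimulated element, 7.81% the AP-1 motif and 13.6% the TATA box. Of the 6 ligands with an entry, Ccl3 holds none of these, and Cxcl12 holds 5 copies of the GC box (GGGCGG, in 35.7% of promoters) while Cx3cl1 holds 1; a C/EBP motif (TTNNGCAA, in 10.8% of promoters) was in 0 of the 6. The promoters of Ccl2, Ccl4, Ccl7 and Cxcl16 were not analysed here. A match of letters is a description of this window and says nothing about binding.

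The abundant ligands made without injury differed little between groups. Cx3cl1 (chromosome 8, 97295909 to 97306323, plus strand) was at 921 and 878 CPM in the controls, against 735 and 700 CPM in the knockouts, from 19756 to 30828 reads per library. The groups do not overlap and each is tight. Cx3cl1 fell by 0.33 ± 0.09 (adjusted p = 0.0375), a 1.25-fold difference. It was not called with the first control library left out (adjusted p = 0.236), nor the second control (0.145) or the second knockout (0.109), with log2 fold changes of -0.28 to -0.36 over all libraries left out.

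Cxcl12, which guides progenitors, interneurons and leukocytes (chromosome 6, 117118553 to 117131385, plus strand), was at 43.2 and 49.1 CPM in the controls, against 41.5 and 45.7 CPM in the knockouts. The groups overlap. The log2 fold change was -0.08 ± 0.12 (95% interval -0.36 to 0.19, adjusted p = 0.655), so a change of 2-fold in either direction lies outside the interval.

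Cxcl16, a membrane-anchored ligand of Cxcr6 (chromosome 11, 70267485 to 70273486, minus strand), was at 2.54 and 2.48 CPM in the controls, against 0.541 and 1.81 CPM in the knockouts. The controls agree closely while the knockouts differ 3.34-fold. Cxcl16 missed the threshold at -1.17 ± 0.46 (log2; 95% interval -2.24 to -0.10, adjusted p = 0.112), and passed with the second knockout library left out (-2.19, adjusted p = 0.00756). With the first knockout library left out it was at -0.47 (adjusted p = 0.292). It shares 552 exonic bases with Zmynd15 on the other strand, which gave 4 and 5 reads in the controls, against 1 and 11 in the knockouts, and 9.47% of its 50-base windows occur more than once in the genome.

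Levels of different ligands are given per kb of exon, with the exons of all annotated transcripts of a gene merged. For Ccl2 these hold 1138 bases against 813 in its longest coding transcript, and for Cxcl12 8176 against 5627. The levels and ranks depend on this choice. In the controls the mean level was 242 ± 8.22 CPM per kb for Cx3cl1, 16.5 ± 1.04 for Ccl12, 5.94 ± 5.88 for Cxcl10, 5.64 ± 0.51 for Cxcl12, 2.65 ± 1.16 for Ccl3, 2.37 ± 0.79 for Ccl2, 1.56 ± 0.48 for Ccl4, 1.46 ± 0.58 for Ccl7, 0.830 ± 0.014 for Cxcl16 and 0.318 ± 0.050 for Cxcl1 (SD, n = 2). Among these neighbours Cxcl10 and Cxcl12, Ccl3 and Ccl2, Ccl2 and Ccl4, and Ccl4 and Ccl7 overlapped. In the knockouts Cx3cl1 (193 ± 6.52 CPM per kb) and Cxcl12 (5.33 ± 0.36) stayed clear of the rest, and the other 8 lay from 0.441 ± 0.333 for Cxcl10 down to 0.059 ± 0.048 for Ccl2 (SD, n = 2), each overlapping the next. Ccl12 moved from rank 2 of 10 in the controls to rank 8 in the knockouts.

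The inflammatory ligands sit in gene clusters, and their neighbours did not all share their change. On chromosome 11 the Ccl2, Ccl7, Ccl11, Ccl12 and Ccl8 genes follow each other with 0 other protein-coding genes lying wholly between them. Gm17268, which overlaps Ccl2, is not counted there. Ccl11 (0 and 4 control reads, 1 and 1 knockout reads) and Ccl8 (4 and 7 against 0 and 1) had too few reads to test. In the cluster of Ccl3 and Ccl4, Ccl9 and Ccl6, myeloid chemokines, had log2 fold changes of -0.16 ± 0.52 and -0.06 ± 0.53 with overlapping groups (adjusted p = 0.857 and 0.949), and each changed sign in at least 1 fit that left out a library. On chromosome 8, Cx3cl1 lies between Ccl22, 20.3 kb before it, and Ccl17, 28.0 kb after it, both ligands of Ccr4 on T cells. Ccl17 went from 0.597 and 0.520 CPM in the controls to 6.64 and 7.73 CPM in the knockouts and rose by 3.67 ± 0.28 (adjusted p = 9.67e-04). Ccl22 went from 0.269 and 0.184 CPM to 0.911 and 1.35 CPM and rose by 2.27 ± 0.48 (adjusted p = 0.0187), but missed the threshold when either control library was left out (0.0867 and 0.132). Ccl22 passed the filter on low counts through the knockouts alone, so that the test could only find it higher. Ccl22 and the cluster view were picked after the values were seen.

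**Figure D3:**
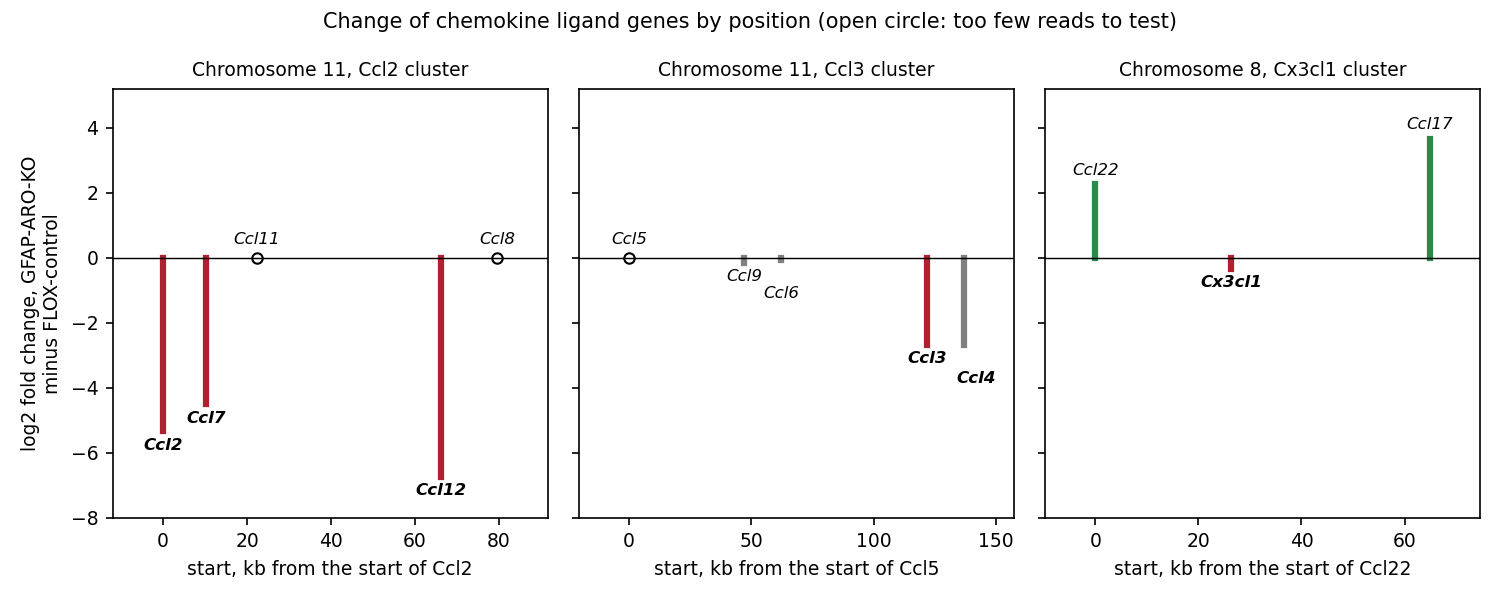
log2 fold change of the chemokine genes of 3 clusters against distance in kb between gene starts; red, lower and green, higher at an adjusted p below 0.05; grey, not called; open circles, too few reads to test; the 10 ligands in bold. Ccl2, Ccl7 and Ccl12 fell within a single cluster, while Cx3cl1 at -0.33 lies between Ccl22 at 2.27 and Ccl17 at 3.67.

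Of 30 other chemokine ligands, 8 had enough reads to test: 3 rose, 2 fell and 3 did not pass. Besides Ccl17 and Ccl22, Ccl27a, a ligand of Ccr10, rose by 0.66 ± 0.17 (adjusted p = 0.0354). Ccl25, a ligand of Ccr9, fell by 0.71 ± 0.18 (adjusted p = 0.0317). Cxcl13, which attracts B cells, fell from 13 and 15 reads to 0 and 0 (adjusted p = 0.0169), at least 8.93-fold lower when 3 reads over both knockout libraries are taken as the floor. Cxcl13 passed the filter through the controls alone and could only be found lower, so neither it nor Ccl22 adds to a count of directions. Cxcl14, the most abundant of the 8 at 74.8 to 98.6 CPM in the controls and 70.9 to 74.8 CPM in the knockouts, did not pass (adjusted p = 0.237). With either control library left out, Ccl17 alone was called among the 8 (Cxcl13 was not tested without the second). Ccl25 and Ccl27a were not called without the second knockout library either (adjusted p = 0.0607 and 0.0513).

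The receptors that could bind the falling ligands were themselves mostly too scarce to test. Of 18 chemokine receptors 3 were tested. Cx3cr1, the microglial receptor of Cx3cl1, went from 66.2 and 72.6 CPM to 27.5 and 24.1 CPM and fell by 1.42 ± 0.12 (adjusted p = 0.00115), a 2.68-fold difference that passed with each library left out. Cxcr4, the receptor of Cxcl12, missed the threshold (-0.38 ± 0.26, adjusted p = 0.325). Ccr2, the receptor of Ccl2, Ccl7 and Ccl12, had 6 and 9 control reads against 1 and 2 knockout reads; Cxcr2 gave 0 and 1 against 3 and 0, Cxcr3 1 and 1 against 0 and 3, and Cxcr6 1 and 1 against 0 and 1. Ccr4, the receptor of Ccl17 and Ccl22, had 0 reads in all 4 libraries, which allows up to 0.0854 to 0.106 CPM in a library. By edgeR 0 of 4 tested atypical receptors, which bind chemokines without classical signalling, passed; the most abundant, Darc (now Ackr1), was at 37.7 to 40.0 CPM in the controls and 41.6 to 42.5 CPM in the knockouts (log2 fold change 0.12 ± 0.11). Ccrl2 had 14 and 32 control reads and 24 and 35 knockout reads, which overlap; at an unadjusted p below 0.05, and by DESeq2 and limma-voom, the count was also 0.

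Among proteases and adhesion molecules 1 of 5 tested genes passed. Adam17, which sheds Cx3cl1 and Cxcl16, fell by 0.76 ± 0.14 (adjusted p = 0.0127), though not with the first or the second control library left out (0.0711 and 0.106). Adam10 was at 93.5 to 98.0 CPM in the controls and 86.7 to 99.96 CPM in the knockouts, with a log2 fold change of -0.04 ± 0.11 whose sign changed with some libraries left out. Icam2, of endothelium, was at -0.53 ± 0.26 (adjusted p = 0.185). Of 5 tested cytokines that induce these ligands 2 passed: Il1b fell by 1.89 ± 0.49 (adjusted p = 0.0344) and Il1a fell by 1.48 ± 0.41 (adjusted p = 0.0404). Neither passed with either control library left out (adjusted p of 0.0815 to 0.194), nor Il1b without the second knockout (0.0885) or Il1a without the first (0.0966), where Il1a was at -0.92. With all libraries, DESeq2 called 0 of the 5 (adjusted p = 0.0774 for Il1b and 0.0865 for Il1a), and the legacy fit of edgeR did not call Il1a (adjusted p = 0.0557). Tnf missed the threshold at -1.85 ± 0.55 (adjusted p = 0.0525). It passed the filter on low counts through the controls alone, so that the test could only find it lower. Csf1, a growth factor of microglia and the most abundant, was at -0.24 ± 0.13 (adjusted p = 0.243).

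Genes of the NF-kappaB system mostly missed the threshold: of 11, 1 fell and 10 did not pass. Bcl3, a nuclear partner of NF-kappaB subunits, fell by 2.63 ± 0.42 (adjusted p = 0.00725), with -1.91 without the first knockout library and -3.69 without the second. Nfkbia, the inhibitor that NF-kappaB induces, was at 43.8 and 27.5 CPM in the controls, against 43.9 and 46.6 CPM in the knockouts and missed the threshold (0.34 ± 0.21, adjusted p = 0.283). Of 7 interferon response factors 4 fell and 3 did not pass. Irf9 fell by 1.23 ± 0.16 (adjusted p = 0.00377), whereas Stat2, the most abundant, was at -0.32 ± 0.13 (adjusted p = 0.115). With either control library left out 1 of the 7, Irf9, passed. Over all these lists, 11 of 43 tested genes fell and 3 rose, where 11% of all tested genes were lower and 9.39% higher. Among the 43, Cxcl13, Tnf and Osm passed the filter on low counts through the controls alone, and Ccl22 through the knockouts alone. The count is thus a description and no evidence of a direction.

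**Figure D4:**
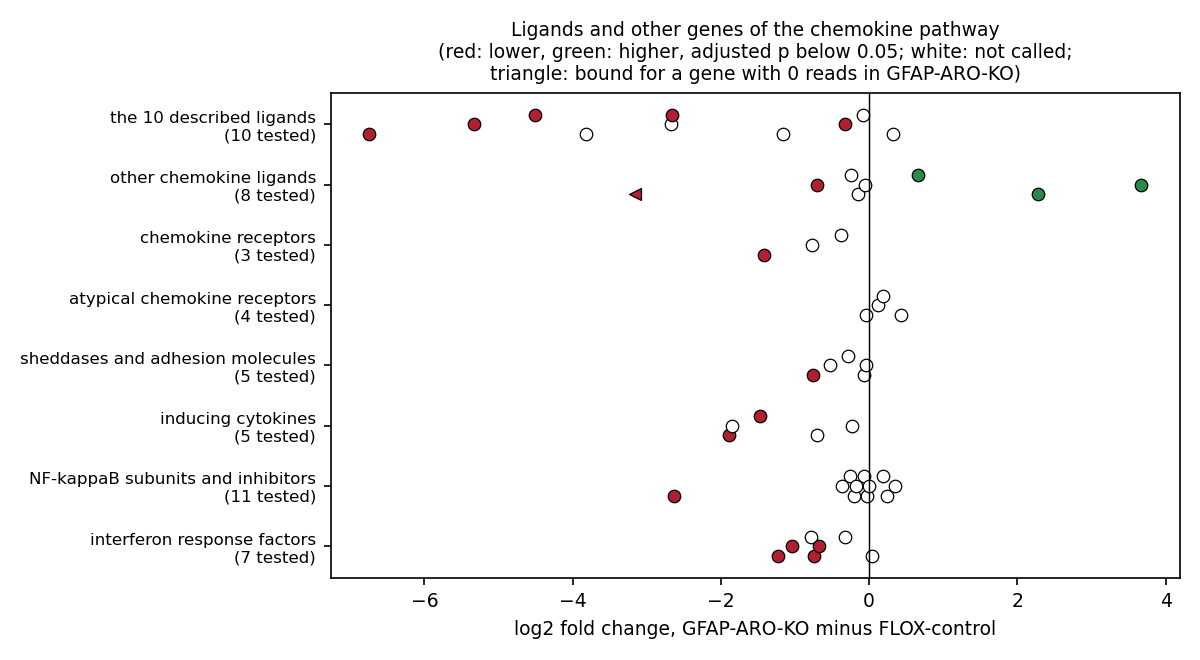
log2 fold change of every tested gene of the chemokine pathway, 1 row per list; red, lower and green, higher at an adjusted p below 0.05; white, not called; the triangle is the bound for Cxcl13, which had 0 reads in the knockouts. The Ccr2 ligands lie left of -4, while 10 of 11 NF-kappaB genes are white and close to 0.

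The median log2 fold change of the 14 microglial markers was -0.94, and 11 of them fell. Over all tested genes 11% were called lower and 9.39% higher. A call of 1 marker in a list of 8 or 9 lies near these shares. Per 1000 CPM of the summed 14 microglial markers, a ratio chosen after the values were seen, Ccl12 was at 13.9 and 13.5 in the controls, against 0.084 and 0.407 in the knockouts. On the same scale Ccl3 was at 2.31 and 3.87 against 0.840 and 1.02, still without overlap, while Cxcl16 was at 4.17 and 3.60 against 1.60 and 5.19 and overlapped. The part of the microglial markers in the change of the ligands was not tested. Of 10 counted markers of neutrophils and monocytes 2 could be tested, and they went in opposite directions. Ly6c1, also made by endothelium, rose by 0.88 ± 0.11 (adjusted p = 0.00359). Lyz2 was at -0.39 ± 0.25 with overlapping groups and did not pass (adjusted p = 0.303). Ly6c2, of the same list, had 0 and 1 control reads against 0 and 0 knockout reads. S100a8, of neutrophils, had 4 and 8 control reads and 10 and 9 knockout reads, Plac8, of monocytes, 3 and 8 against 0 and 0, and Elane was at 0 in all 4 libraries. Of 8 lymphocyte markers 0 had enough reads for a test, and their summed level was 0.209 to 0.957 CPM over the 4 libraries. Of 8 astrocyte markers 2 fell, the filament gene Gfap at -0.94 ± 0.09 (adjusted p = 0.00151) and the water channel gene Aqp4 at -1.40 ± 0.16 (adjusted p = 0.00364), while Slc1a2 was not called. Of 8 endothelial markers 1 rose and 1 fell: Pecam1 at 1.05 ± 0.15 (adjusted p = 0.00525) and Flt1, the most abundant, at -0.86 ± 0.12 (adjusted p = 0.00491). Of 8 neuronal markers 1 rose and 1 fell, and Camk2a was not called. Of 9 markers of mural cells and meninges 1 rose, and Dcn was at 0.27 ± 0.28 (adjusted p = 0.527). Of 6 choroid plexus markers 3 rose, against 0 with either control library left out, and 1 of the 3, Kcne2 (2 and 1 control reads against 18 and 17), passed the filter through the knockouts alone and could only be found higher; Kl was at 0.19 ± 0.13 (adjusted p = 0.324). The part of these cell types in the ligands' change was not tested.

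The genes whose pattern was most like that of Ccl12 over the 4 libraries were Timp1, Gdpd3, Tgm1, Phox2a and Gm5150, at distances of 1.19 to 1.56 (Euclidean, log2 CPM centred on each gene's mean). Timp1, a metalloprotease inhibitor, was at 18.2 and 17.2 CPM in the controls, against 0.427 and 0.496 CPM in the knockouts. Gdpd3 had 432 and 345 control reads against 8 and 4, Tgm1 153 and 223 against 4 and 7, Phox2a 97 and 77 against 1 and 0, and Gm5150 45 and 61 against 0 and 0, at least 33.8-fold lower. Their difference between the groups was fixed by this choice and is a description, with no test.

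The count of ligands called lower depended on the libraries. It was 6 without the first control library (where 3.59% of tested genes were called lower), 2 without the second (3.37%), 5 without the first knockout library (15.9%) and 6 without the second (9.58%). Ccl12 and Ccl2 were called under all 13 alternative settings, with adjusted p up to 0.00131 for Ccl12 and 0.00877 for Ccl2.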

How the data were processed

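The deposited files hold raw read counts per gene symbol, in a separate file for each of 4 libraries. Per the labels' protocols, TruSeq total RNA libraries gave 50 bp single-end reads; per the submitters' processing notes, bcl2fastq, TopHat2 2.0.8b (mm9) and HTSeq were used. The design text says that runs in duplicate were combined. Which strand setting, annotation and HTSeq version were used is not stated there. Left out were 5 tally rows that name no gene, with 45.2% to 47.3% of entries.

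Groups came from the sample titles. Genes kept by filterByExpr (minimum count 10) were tested across all 15011 genes with edgeR 4.0.16 in R 4.3.3 (TMM scaling, glmQLFit with legacy=FALSE and robust estimation), adjusted by Benjamini-Hochberg and called below 0.05; the steps were tested on simulated data. CPM used TMM factors. SE is the absolute log2 fold change over the square root of F. Counting intervals are exact binomial intervals of summed reads at 95%; 3 reads stand for the level that a count of 0 allows. Coordinates, exon lengths and overlaps come from GENCODE vM1 on NCBIM37, the assembly of mm9; 50-base windows were searched in that genome on both strands. Promoters come from RefSeq.

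Named beside the 10 ligands were, from each pathway list, the 2 tested genes with the smallest p and the most abundant; from each marker list the most abundant; and the 5 genes most like Ccl12; some of the genes so named are not reported here. Others, such as Ccl22, Ccl25, Ccl27a, Ccl6, Ccl9, Tnf, Cxcr4, Gfap, Aqp4, Pecam1, Kcne2 and the untested genes, were picked for the text with their values known. The ligands and lists were chosen with earlier results of these data known. Results were recomputed with DESeq2 1.42.0, limma-voom (limma 3.58.1), other scalings (RLE, upper quartile), a stricter filter (CPM of 1 in 2 libraries) or none, the legacy fit, non-robust estimation, a replicate block, and leaving out libraries in turn. With groups of 2, an exact permutation test over samples cannot give a two-sided p below 0.333, so none was used.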

Additional observations from a re-analysis of the deposited data

How the results depend on the processing

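Of 126 values of the 10 ligands under the 13 alternatives, 112 kept their direction and their side of the threshold, 8 passed only under the alternative, 5 no longer passed and 1 changed sign. The sign change was Cxcl12, at 0.0121 without the second control library (range over libraries left out -0.16 to 0.0121). Called ligands numbered 2 to 6 and called pathway genes 4 to 13 with each library left out, against 5 and 14 with all; called genes overall went from 813 to 4821, against 3061. The counts were 901 and 813 without the first and second control library, and 4821 and 2763 without the first and second knockout library. The causes were not tested; each such fit takes its spread from 1 group. The stricter filter left out 3 of the 10 ligands and called 4 of the other 7 lower, where 1593 of 13729 tested genes were called lower. Scaling moved no call of a ligand, and moved the median log2 fold change by 0.0052 (RLE) and 0.024 (upper quartile).

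Over all tested genes the replicate number did not pair the libraries: same-numbered deviations correlated at -0.0057. With the replicate block 7 ligands were called, adding Ccl4 (adjusted p = 0.011) and Cxcl10 (adjusted p = 7.76e-05), and 3194 genes overall. DESeq2 and non-robust estimation called 6, adding Cxcl10 (adjusted p = 0.0238 and 0.0362). Of 15011 tested genes, they called 1738 and 1630 lower.

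Among other named genes, 436 of 473 values kept direction and call, 26 no longer passed and 11 changed sign, in 5 genes, none of them called with all libraries. Ccrl2 was at -0.054 without the first control and -0.014 without the second knockout library, Adam10 at 0.0039 without the first control and 0.062 without the first knockout, and Dcn at -0.068 without the second knockout; over libraries left out these reached 1.16, -0.13 and 0.60 in turn. Ccl6 was at 0.145 with limma-voom, 0.0123 with the replicate block, 0.95 without the second control and 0.077 without the first knockout, and Ccl9 at 0.578 without the second control and 0.083 without the second knockout; their lowest were -0.65 and -0.64 without the first control. Levels under about 0.1 CPM rest on 3 reads or fewer, which limits the size of the falls of Ccl2, Ccl7 and Ccl12.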

Other observations

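Several inflammatory ligands were higher in the second control library than in the first. The level in the second was 1.62 times that in the first for Ccl2, 1.90 for Ccl3, 1.56 for Ccl4, 1.79 for Ccl7 and 5.65 for Cxcl10, but 1.09 for Ccl12, 0.976 for Cxcl16 and 0.953 for Cx3cl1. Between the knockout libraries the ratio was 3.28 for Cxcl10, 3.34 for Cxcl16 and 1.24 for Ccl3, but 1.10 for Cxcl12, 0.953 for Cx3cl1 and 0.747 for Cxcl1. Ccl4 had 0 and 10 knockout reads, and Ccl2, Ccl7 and Ccl12 had 4 or fewer in each knockout library. Cxcl11, another interferon-induced ligand of Cxcr3 and the next chemokine gene to Cxcl10, was counted at 2 reads in the first control, 15 in the second, and 1 and 0 in the knockout libraries. Sele, an adhesion molecule of activated endothelium, had 6 and 21 control reads against 2 and 0 knockout reads. These genes were picked after their values were seen, and Cxcl11 and Sele had too few reads to test.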
